A study of Mus musculus with 20 samples.

Results

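The receptors that bind the constant part of immunoglobulin G (IgG), Fcgr1, Fcgr2b, Fcgr3 and Fcgr4, were examined together with 3 molecules that carry or receive their signal, Fcer1g, Tyrobp and Syk. The 7 genes were picked by symbol from the 59311 rows of the normalized count table, and each symbol marked 1 row. The table held 20 libraries from 10 male C57BL/6 mice (10 to 12 weeks old) in which CCl4 (0.6 ml/kg, 2 injections a week over 4 weeks) had induced liver fibrosis. Mice 11 to 15 received vehicle (1% DMSO in PBS) and mice 16 to 20 were given the MR1 ligand Ac-6-FP at 0.25 mg/kg, which blocks the activation of mucosal-associated invariant T (MAIT) cells, 2 hours before the last CCl4 injection and daily for 2 days. From each liver, Ly6C hi and Ly6C lo monocyte-derived macrophages (MoMac) were sorted as Ly6G-, CD11c-, CD3-, CD11b+ and F4/80+ cells, so that each of the 4 groups had 5 libraries. All mice carried CCl4 injury, so the data hold no uninjured liver.

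Fc gamma receptors let macrophages sense IgG bound to particles, cells or soluble antigen. The activating receptors in mice (encoded by Fcgr1, Fcgr3 and Fcgr4) have no signalling motif of their own and pair with the common gamma chain, encoded by Fcer1g, whose tyrosine motif (ITAM) is phosphorylated by Src family kinases and then recruits the kinase Syk. Fcgr2b encodes the inhibitory receptor, whose own motif recruits lipid phosphatases, so that the balance between activating and inhibitory receptors sets the threshold for phagocytosis and cytokine release. Tyrobp encodes DAP12, a second ITAM adaptor that serves receptors other than those for IgG, among them Trem2.

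Fcgr2b, Fcgr4, Fcgr3 and Fcer1g lie in 1 stretch of chromosome 1 (mm10, chr1:170960567-171234349, 273783 bases), whereas the other 3 genes lie elsewhere. The rows of the table placed Fcgr2b at chr1:170960567-170976547, Fcgr4 at chr1:171018920-171029761, Fcgr3 at chr1:171051169-171059403, Fcer1g at chr1:171229574-171234349, Fcgr1 at chr3:96282909-96293971, Tyrobp at chr7:30413788-30417577 and Syk at chr13:52583165-52648791. Fcgr4 is encoded on the plus strand, and its neighbours Fcgr2b, Fcgr3 and Fcer1g on the minus strand. Since Fcgr2b and Fcgr3 are close relatives, their GENCODE transcripts were searched for identical windows of 75 bases, the read length. They shared 94 windows, 5.42% of those of Fcgr3 and 1.63% of those of Fcgr2b (5.43% with any other gene), so a small share of reads could come from either gene. Fcgr1, Fcgr4, Fcer1g, Tyrobp and Syk shared no window with another gene. A row without a symbol (GSMG0065294) covered the interval of Fcer1g, and its values were between 96.6% and 100.2% of those of Fcer1g in the 20 libraries, so reads of the 2 rows cannot be told apart.

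The 250 bases before the transcription start are shown for the genes of the 3 activating receptors and their shared adaptor, because Fcgr3 was higher in Ly6C hi, Fcgr4 and Fcer1g were higher in Ly6C lo, and Fcgr1 did not pass. The sequences were taken from a set of RefSeq promoters (GRCm38.p6) and are written 5′ to 3′ in the direction of the gene. The set used held an entry for each of the 7 genes but Tyrobp. Capitals mark 3 motifs searched on both strands: the core AGGAAG bound by ETS factors such as PU.1, the interferon gamma activation site TTCNNNGAA, and the RUNX motif TGTGGT.
Fcgr1, chr3:96293970-96294219, minus strand: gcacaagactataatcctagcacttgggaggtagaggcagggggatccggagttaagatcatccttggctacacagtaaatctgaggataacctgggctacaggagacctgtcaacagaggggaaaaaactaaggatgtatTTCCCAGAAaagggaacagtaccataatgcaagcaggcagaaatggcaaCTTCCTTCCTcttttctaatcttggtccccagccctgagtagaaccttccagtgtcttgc
Fcgr3, chr1:171059404-171059653, minus strand: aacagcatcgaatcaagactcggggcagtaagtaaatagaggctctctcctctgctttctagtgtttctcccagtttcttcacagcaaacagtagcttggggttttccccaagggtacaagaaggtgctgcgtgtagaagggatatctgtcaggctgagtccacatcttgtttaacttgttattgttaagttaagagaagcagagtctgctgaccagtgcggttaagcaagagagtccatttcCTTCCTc
Fcgr4, chr1:171018676-171018925, plus strand: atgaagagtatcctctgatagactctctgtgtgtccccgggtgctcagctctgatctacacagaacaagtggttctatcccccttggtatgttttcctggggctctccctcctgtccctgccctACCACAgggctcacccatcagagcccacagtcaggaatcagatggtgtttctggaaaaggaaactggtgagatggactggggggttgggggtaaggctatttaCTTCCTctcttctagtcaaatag
Fcer1g, chr1:171234350-171234599, minus strand: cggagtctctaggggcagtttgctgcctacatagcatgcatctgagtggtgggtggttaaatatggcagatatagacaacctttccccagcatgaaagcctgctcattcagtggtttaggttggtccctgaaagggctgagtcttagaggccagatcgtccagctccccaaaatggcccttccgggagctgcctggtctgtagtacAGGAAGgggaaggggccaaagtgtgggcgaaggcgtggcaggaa

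The ETS core was found in all 4 of these windows, 60 and 56 bases before the start of Fcgr1 (overlapping copies), 7 bases before that of Fcgr3, 23 before that of Fcgr4 and 44 before that of Fcer1g. It occurred in 29.6% of 32536 promoter windows of this length. An activation site stood only before Fcgr1 among the windows searched, 109 bases from its start, against 7.04% of all windows, and a RUNX motif only before Fcgr4, 126 bases from its start, against 14.0% of all windows. The windows of Fcgr2b and Syk held none of the 3 motifs. Such matches describe the letters and do not show that a factor binds there.

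Between 5693049 and 18682437 reads per library fell on genes. The libraries of vehicle mice 12, 13 and 14 stood apart, with 5343 to 10379 genes above 0 against 11096 to 15766 in the other 14 libraries. The sort was visible in the libraries: all 8 markers of Ly6C hi monocytes were higher in Ly6C hi than in Ly6C lo libraries. The macrophage markers summed to between 31757 and 60498 in Ly6C hi and between 20622 and 60176 in Ly6C lo libraries. Ly6C lo libraries also carried transcripts of cells other than macrophages, which are given beside the results they move with.

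Levels of the 7 genes spanned a wide range. Per kilobase of merged exons, the mean normalized count in Ly6C hi was 52610 for Fcer1g, 33249 for Tyrobp, 5633 for Fcgr3, 363 for Fcgr2b, 332 for Fcgr1, 102 for Fcgr4 and 9.14 for Syk. In Ly6C lo it was 72125 for Fcer1g, 32664 for Tyrobp, 2654 for Fcgr3, 741 for Fcgr4, 397 for Fcgr2b, 169 for Fcgr1 and 14.2 for Syk, so that Fcgr4 was the lowest of the receptors in Ly6C hi and came after Fcgr3 in Ly6C lo. These lengths include exons that the authors' count on constitutive regions may leave out, so the order is approximate. On this scale both ITAM adaptors were more abundant than any of the receptors in both subsets. Within Ly6C hi the coefficient of variation was lowest for Fcgr3 (11.7%), Tyrobp (14.2%) and Fcer1g (14.6%), and within Ly6C lo for Tyrobp (21.2%) and Fcer1g (22.3%). It was highest for Syk in both subsets (110% and 98.1%).

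**Figure D1:**
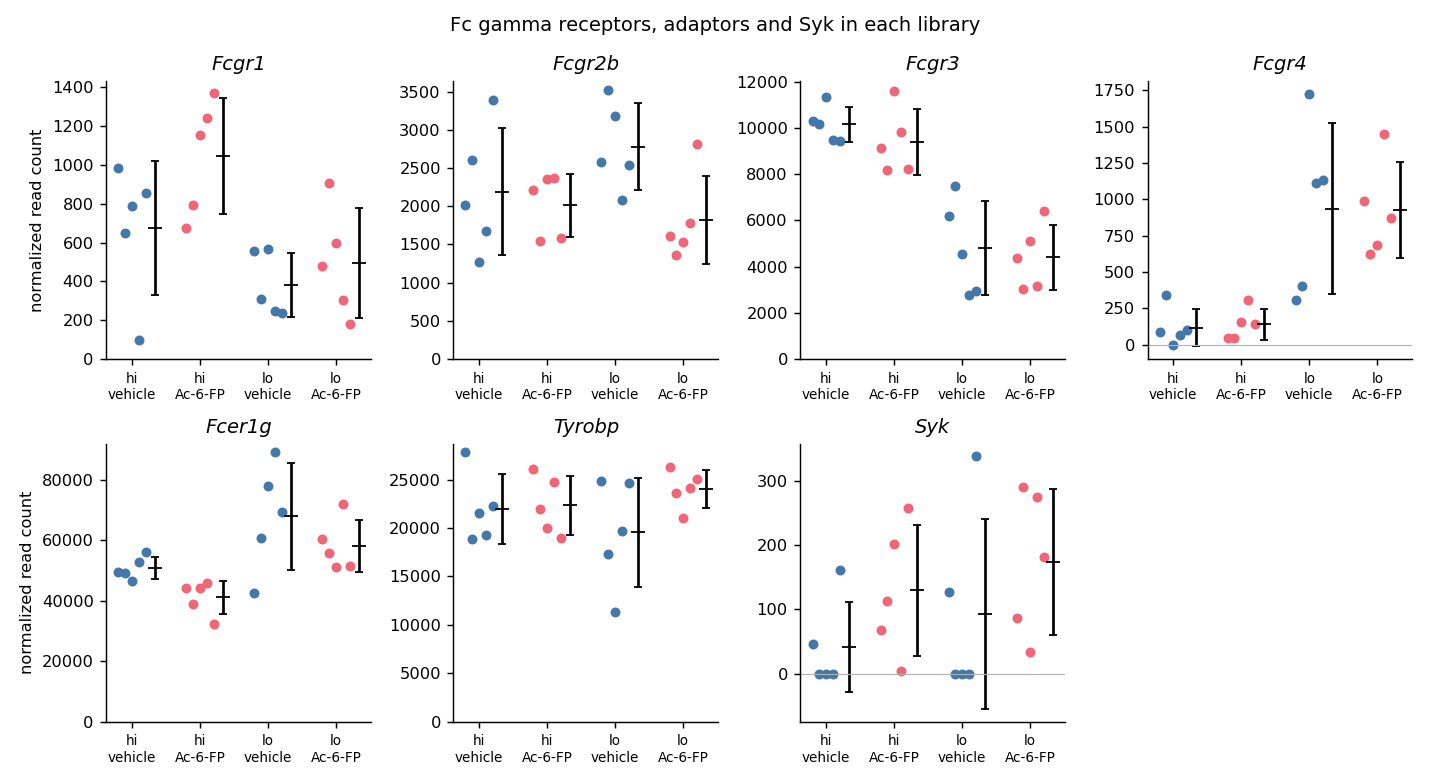
Normalized read count (linear y axis) of each gene in each library, for the 5 mice of each of the 4 groups in order of mouse number, with the group mean and SD as a bar at the right. The means of Fcgr3 are higher and those of Fcgr4 lower in both Ly6C hi groups than in the Ly6C lo groups, and Syk is at 0 in both libraries of 3 vehicle mice.

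To find out which receptors distinguish the 2 sorted subsets, Ly6C hi was compared with Ly6C lo within each mouse. Of the 7 genes, Fcgr3 was the more abundant in Ly6C hi, and Fcgr4 and Fcer1g the more abundant in Ly6C lo (limma on log2(normalized count + 1), Benjamini-Hochberg adjusted p under 0.05 over 17248 genes). The 3 calls of 7 stood against 5.22% of all genes tested called in either direction, 1.81% with more in Ly6C hi and 3.41% with more in Ly6C lo. Fcgr1, Fcgr2b, Tyrobp and Syk did not pass. Among the receptors, the 2 that passed, Fcgr3 and Fcgr4, had opposite directions. The median log2 difference of the 4 receptors was 0.40, and that of all genes -0.03.

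Fcgr3 encodes the low affinity activating receptor Fc gamma RIII. In Ly6C hi it was measured at 10306, 10186, 11358, 9479 and 9463 normalized counts in vehicle mice 11 to 15, and at 9140, 8166, 11597, 9849 and 8237 in Ac-6-FP mice 16 to 20. In Ly6C lo the same mice had 6189, 7500, 4537, 2793 and 2966 with vehicle and 4373, 3042, 5095, 3160 and 6418 with Ac-6-FP. The lowest Ly6C hi library was above the highest Ly6C lo library, and the spread was narrower in Ly6C hi (9778 ± 1146, SD, n = 10) than in Ly6C lo (4607 ± 1666, SD, n = 10). The difference amounted to 1.16 on the log2 scale (SE 0.15), or 2.24-fold, with the same sign in 10 of 10 mice (limma adjusted p = 0.000705). A two-sided exact test over sign changes of the 10 mice gave p = 0.00195, the smallest it can give. In 3.85% of all genes tested the within-mouse difference had 1 sign in all 10 mice. The difference was 1.19 in vehicle mice alone and 1.13 in Ac-6-FP mice alone, in 5 of 5 mice each. With 5 mice it missed the threshold in both (limma adjusted p = 0.268 and 0.0533).

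Fcgr4 encodes Fc gamma RIV, an activating receptor for IgG2a and IgG2b that is known from Ly6C lo patrolling monocytes and neutrophils. In Ly6C hi it was low, at 84.1, 339, 0, 64.8 and 96.9 normalized counts in mice 11 to 15 and at 44.3, 48.3, 155, 305 and 142 in mice 16 to 20. In Ly6C lo it was measured at 307, 403, 1728, 1115 and 1130 with vehicle and at 989, 623, 686, 1454 and 873 with Ac-6-FP. All 10 mice had more Fcgr4 in Ly6C lo, and the ranges met only where the Ly6C lo library of mouse 11 lay below the Ly6C hi library of mouse 12.

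The mean of Fcgr4 was 128 ± 112 in Ly6C hi and 931 ± 449 in Ly6C lo (SD, n = 10 each), a ratio of means of 7.28. The fitted log2 difference was -3.56 (SE 0.82, limma adjusted p = 0.0275), and the exact test gave p = 0.00195. Its size rested on mouse 13, whose Ly6C hi library had no read for the gene (an upper limit of 2.65 normalized counts at 3 reads), since without that mouse the difference was -2.73 (limma adjusted p = 0.00285). In the 9 mice with reads in both subsets the level in Ly6C lo was 1.19 to 22.3 times that in Ly6C hi. The call was lost in 12 of 24 alternatives, among them edgeR on the recovered reads (log2 difference -3.19, adjusted p = 0.0932), while the direction was kept in all 24.

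Fcgr1 encodes Fc gamma RI, the high affinity receptor that binds monomeric IgG. In Ly6C hi its levels were 982, 650, 790, 97.6 and 858 normalized counts in mice 11 to 15 and 676, 793, 1152, 1242 and 1368 in mice 16 to 20. In Ly6C lo they were 556, 308, 566, 246 and 235 with vehicle and 482, 907, 600, 303 and 181 with Ac-6-FP. The level was greater in Ly6C hi in 8 of 10 mice, mice 14 and 17 being the exceptions, and the ranges overlapped. This gave a log2 difference of 0.91 (SE 0.38), with a 95% interval from 0.07 to 1.74, which did not pass after adjustment (limma adjusted p = 0.245, exact p = 0.0430).

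Fcgr2b, the only inhibitory receptor of the family, was measured at 2019, 2604, 1271, 1679 and 3389 normalized counts in Ly6C hi of mice 11 to 15 and at 2211, 1541, 2359, 2369 and 1583 in mice 16 to 20. In Ly6C lo it was measured at 2576, 3526, 3176, 2083 and 2535 with vehicle and at 1605, 1365, 1537, 1787 and 2814 with Ac-6-FP. The mice were evenly split, 5 with more in each subset. Their log2 difference averaged -0.12 (95% interval -0.54 to 0.31, limma adjusted p = 0.771).

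Because Fcgr2b acts against the activating receptors, the ratio of each to Fcgr2b was taken within each library. A scaling factor per library cannot change the ranges and medians given. Mouse counts and exact tests used the log2 ratio after adding 1 to both counts, on which scaling has some effect where counts are low. The Fcgr3 to Fcgr2b ratio of normalized counts ranged from 2.79 to 8.94 (median 5.01) in Ly6C hi and from 1.17 to 3.31 (median 2.18) in Ly6C lo, and it was greater in Ly6C hi in 10 of 10 mice (two-sided exact p = 0.00195). The Fcgr4 to Fcgr2b ratio ranged from 0 to 0.130 (median 0.0401) in Ly6C hi and from 0.114 to 0.814 (median 0.451) in Ly6C lo, greater in Ly6C lo in 9 of 10 mice (exact p = 0.00391). The Fcgr1 to Fcgr2b ratio was greater in Ly6C hi in 8 of 10 mice (exact p = 0.0293). In all, 5 ratios were computed without adjustment, and these 3 share their denominator. Counts are not divided by gene length, so each ratio compares libraries and not the amounts of 2 receptors.

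Fcer1g, the gamma chain shared by the activating receptors and by the IgE receptor, was the most abundant of the 7 genes per length in both subsets. In Ly6C hi its normalized counts were 49502, 49293, 46470, 52710 and 56047 in mice 11 to 15 and 44137 (mouse 16), 39037, 44190, 45946 and 32480 in mice 17 to 20. In Ly6C lo they were 42598, 60608, 77955, 89093 and 69264 with vehicle and 60368, 55884, 51233, 72034 and 51339 with Ac-6-FP. The Ly6C lo library was the higher one in 9 of 10 mice, and mouse 11 went the other way. The log2 difference was -0.44 (SE 0.08, limma adjusted p = 0.00937, exact p = 0.00586), with a mean in Ly6C lo 1.37 times that in Ly6C hi. Quantile normalization reduced the difference to -0.06 (limma adjusted p = 0.642), and without vehicle mice 12, 13 and 14 it was -0.27 (adjusted p = 0.112), an alternative added after the values were seen.

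Tyrobp, by contrast, was near level between the subsets. It was measured at 27880, 18907, 21574, 19317 and 22285 normalized counts in Ly6C hi of mice 11 to 15 and at 26120, 21952, 19975, 24743 and 19020 in mice 16 to 20. In Ly6C lo the values were 24829, 17302, 11310, 19664 and 24645 with vehicle and 26264, 23593, 21058, 24089 and 25114 with Ac-6-FP. The groups overlapped throughout, and only the Ly6C lo library of mouse 13 lay far below the others. The log2 difference was 0.05 with a 95% interval of -0.15 to 0.25 (limma adjusted p = 0.789), so a difference between subsets of the size seen for Fcer1g lay outside the interval. The Fcer1g to Tyrobp ratio had a median of 2.01 in Ly6C hi and 2.62 in Ly6C lo and was greater in Ly6C lo in 9 of 10 mice (exact p = 0.00391).

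Syk had few reads on the constitutive regions counted. Its normalized counts in Ly6C hi were 46.9, 0, 0, 0 and 161 in mice 11 to 15 and 68.7, 114, 202, 5.16 and 258 in mice 16 to 20. In Ly6C lo they were 127, 0, 0, 0 and 337 with vehicle and 87.0, 291, 34.7, 274 and 182 with Ac-6-FP. Both libraries of vehicle mice 12, 13 and 14 had no read, which allows up to 2.65 to 6.26 normalized counts at 3 reads per library (counting error only), and all other libraries were above 0. This pattern of 6 libraries at 0 and 14 above was shared by 14 of the genes tested (0.0812%), and 20.9% of the genes tested were at 0 in those 6 libraries. The difference between subsets had a wide interval, from -2.31 to 0.99 on the log2 scale (limma adjusted p = 0.654).

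**Figure D2:**
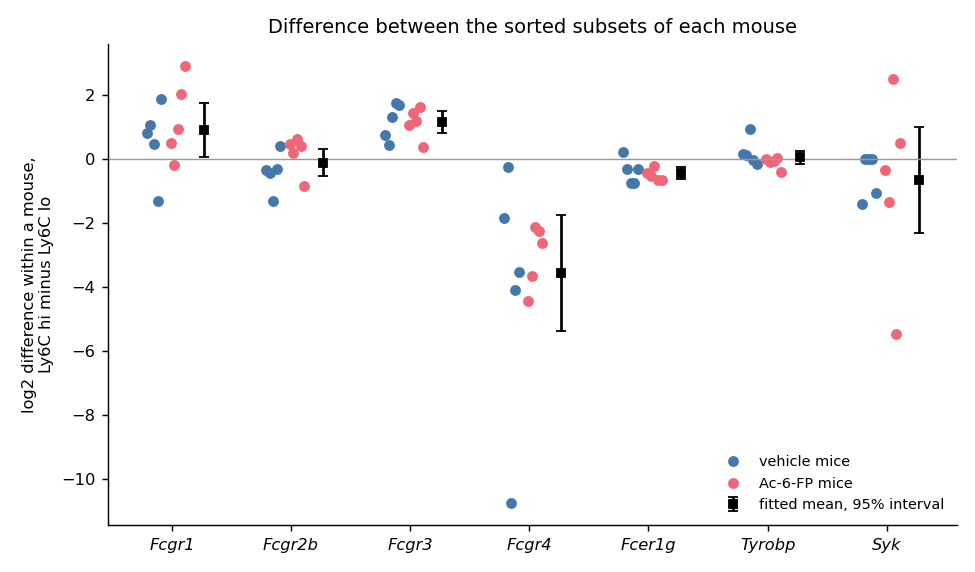
Log2 difference between Ly6C hi and Ly6C lo within each mouse (points, 5 vehicle and 5 Ac-6-FP mice) and the fitted mean with its 95% interval (squares). All points of Fcgr3 lie above 0 and all points of Fcgr4 below, and the lowest Fcgr4 point is mouse 13, whose Ly6C hi library had no read.

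Other cells that use these receptors were followed by their markers, although the gate had removed Ly6G+, CD11c+ and CD3+ cells. NK cells carry Fc gamma RIII with Fcer1g, basophils carry the IgE receptor with the same chain, and neutrophils carry Fc gamma RIV. NK cell markers (10 genes) summed to 0 to 815 normalized counts in Ly6C hi and to 45924 to 101522 in Ly6C lo libraries, 8 of the 10 being higher in Ly6C lo. The highest sum was in mouse 16, whose Fcer1g in Ly6C lo (60368) lay below the mean of that subset (63038), and the next (77986) in mouse 13, whose Fcer1g (77955) lay above it. Eomes, Prf1 and Tbx21 were at 0 in all Ly6C hi libraries.

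Basophil and mast cell markers (7 genes) summed to between 0 and 138 in Ly6C hi and to between 2457 and 41801 in Ly6C lo libraries, and all 7 were higher in Ly6C lo. The highest sum, 41801, was in the Ly6C lo library of mouse 13, in which Fcgr4 was the highest and Fcer1g the second highest of the Ly6C lo libraries. The next, 13165, was in that of mouse 17, whose Fcgr4 (623) and Fcer1g (55884) lay below their means in the subset. Neutrophil markers (10 genes) summed to between 10404 and 15990 in Ly6C hi and to between 10463 and 132961 in Ly6C lo, 4 being higher in Ly6C lo and 2 in Ly6C hi. In Ly6C hi the largest means were those of Mmp8 (7356), S100a8 (3982) and Elane (1851), while Camp, Ltf, Ngp, Cxcr2 and Ly6g had at most 4.84. In Ly6C lo the sum mainly followed Retnlg, with a mean of 40890 and a highest value of 117062. Among Ly6C lo libraries, the highest neutrophil sum was in mouse 20 (Fcgr4 873) and the lowest in mouse 15 (Fcgr4 1130). Whether Fcgr4 follows these sums was not tested. Dendritic cell markers (8 genes) summed to between 83.8 and 535 in Ly6C hi and to between 8890 and 22243 in Ly6C lo libraries, with 4 higher in Ly6C lo.

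Markers of Ly6C lo macrophages and patrolling monocytes (8 genes) summed to between 5982 and 24154 in Ly6C hi and to between 25451 and 61255 in Ly6C lo. Of these, Ace, Treml4 and Cd9 were higher in Ly6C lo and the other 5 did not pass, among them Trem2, Gpnmb and Nr4a1 with fitted values above those of Ly6C lo in Ly6C hi (log2 differences of 0.91, 0.92 and 0.59). T cell markers reached at most 272 in Ly6C hi and lay between 796 and 4267 in Ly6C lo libraries, where 1 of 5 tested (Lck, which NK cells also use) was higher. The part of these cells in the differences of Fcer1g and Fcgr4 (higher in Ly6C lo) and of Fcgr3 (higher in Ly6C hi) was not tested. In bulk libraries, fewer cells of a type and less RNA per cell cannot be told apart.

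The remaining lists were low or showed fewer differences. B cell markers (7 genes found) summed to 116 to 924 in Ly6C hi and to 0 to 1284 in Ly6C lo libraries, and Kupffer cell markers to 817 to 2924 and 680 to 6841, with 1 gene of each higher in Ly6C lo. The Kupffer cell sum mainly followed Id3 (means of 1720 in Ly6C hi and 3208 in Ly6C lo), while Clec4f, Vsig4 and Cd5l had means of at most 63.3. Liver endothelial markers summed to between 36.8 and 669 in Ly6C hi and to between 0 and 4515 in Ly6C lo, 2 being higher in Ly6C lo. Hepatocyte markers summed to between 3807 and 11374 and between 6058 and 12624, 1 of them higher in Ly6C lo, and stellate cell and myofibroblast markers to at most 968 and 306, with no gene past the threshold. The hepatocyte sum mainly followed Trf (means of 6497 in Ly6C hi and 6289 in Ly6C lo), while Alb had means of 274 and 516.

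**Figure D3:**
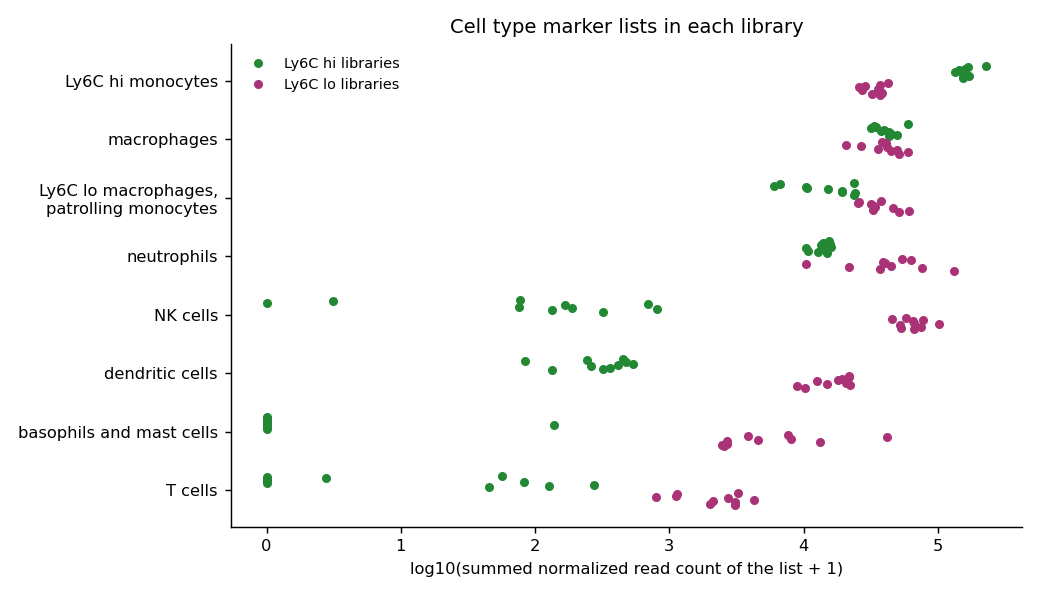
Summed normalized read count of 8 marker lists in each library on a log10(sum + 1) axis, with the 10 Ly6C hi and 10 Ly6C lo libraries in separate colours. The NK cell list lies between 45924 and 101522 in Ly6C lo libraries and at or below 815 in Ly6C hi libraries, while the macrophage list overlaps.

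Genes around the receptors were then followed in lists chosen with earlier results of these data known. Among 12 other Fc receptors tested, 4 were higher in Ly6C lo and none higher in Ly6C hi (median log2 difference -0.97), against 3.41% and 1.81% of all genes tested. By the naming rule only Fcer1a is described, and the other 3, named after their values were seen, were Fcgrt (the neonatal Fc receptor), Ms4a2 (the beta chain of the IgE receptor) and Fcrl5. Fcer1a, the IgE-binding chain that pairs with Fcer1g, had a mean of 555.7 normalized counts in Ly6C lo and was at 0 in 9 of 10 Ly6C hi libraries (limma adjusted p = 1.59e-05). Fcer1a, Ms4a2, Fcrl5, Fcer2a, Fcmr, Fcrls and Fcrlb reached the mean of 10 needed for testing only in Ly6C lo. They could hardly be called in the other direction, so this filter partly sets the count and the median of the list. Fcer1a and Ms4a2 are also in the basophil and mast cell list. All 3 relatives of the adaptors and of Syk (Cd247, Hcst and the kinase Zap70) were higher in Ly6C lo. Cd247, the zeta chain of the T cell receptor complex, which activating receptors of NK cells also use, had a mean of 911 in Ly6C lo and 0.550 in Ly6C hi (adjusted p = 4.18e-05), and Hcst, which encodes DAP10, had 973 and 391 (adjusted p = 0.0191). Cd247 and Zap70 also reached the mean needed for testing only in Ly6C lo.

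Of 19 receptors tested that pair with Fcer1g or Tyrobp, 7 were higher in Ly6C lo and 1 in Ly6C hi (median -0.61), where all genes had 3.41% and 1.81%. Tarm1, a receptor that signals through Fcer1g, was the one higher in Ly6C hi, with 449 against 19.2 normalized counts and a log2 difference of 5.91 (limma adjusted p = 0.000444). The largest differences towards Ly6C lo by the naming rule were those of Ncr1 (1802 against 4.25) and Klrk1 (2038 against 24.1), both activating receptors of NK cells. Cd300ld, a myeloid receptor, followed with 14669 against 1922 (limma log2 difference -2.96, adjusted p = 5.36e-06). The remaining 4, named after their values were seen, were Sirpb1a, Clec4n, Clec4b1 and Itgb2. Ncr1 reached the mean of 10 needed for testing only in Ly6C lo.

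Inhibitory receptors went both ways, with 4 of 15 tested higher in Ly6C lo and 2 in Ly6C hi (median -0.15), beside 3.41% and 1.81% of all genes tested. Pirb, which binds MHC class I, was higher in Ly6C hi by 0.89 on the log2 scale (limma adjusted p = 0.0150). Cd72 and Pilra were higher in Ly6C lo, by log2 differences of -7.57 and -1.04 (adjusted p = 0.000348 and 0.00260). Another of the 4, Cd22, was at 0 in all Ly6C hi libraries and was tested only through its level in Ly6C lo. Of 16 inhibitory phosphatases and adaptors 2 were higher in Ly6C lo (median -0.52, beside the same 3.41% of all genes), among them Ptprc, which encodes the phosphatase CD45, with a log2 difference of -0.68 (adjusted p = 0.000355). The other, Sla2, had a mean of 1.06 normalized counts in Ly6C hi and was tested only through its level in Ly6C lo.

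The signalling machinery between receptor and phagocytosis was described by 3 lists, beside which 5.22% of all genes tested were called between the subsets. Of 5 Src family kinases tested, 1 was higher in Ly6C lo, the lymphocyte kinase Lck, with 2251 against 25.1 normalized counts (limma adjusted p = 4.88e-05). Among 28 genes downstream of Syk, 2 were higher in Ly6C lo (median -0.11), of which Cdc42, a GTPase of actin remodelling, had a log2 difference of -0.34 (adjusted p = 0.00298). Of 16 genes of the phagocytic cup and actin, 2 were higher in Ly6C hi (median 0.08), including Cfl1, which encodes the actin-severing protein cofilin (0.33, adjusted p = 0.00605). Ifngr1, a chain of the interferon gamma receptor chosen after its values were seen, had a mean of 7266 normalized counts in Ly6C hi and 10904 in Ly6C lo (limma adjusted p = 0.0304).

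To ask whether blocking MAIT cell activation changed the receptors, the Ac-6-FP and vehicle mice were compared separately in Ly6C hi and Ly6C lo. None of the 7 genes passed the threshold in Ly6C hi or in Ly6C lo (limma, 5 against 5 mice), nor with edgeR. At an unadjusted p under 0.05 there was 1 gene in each subset, Fcer1g in Ly6C hi and Fcgr2b in Ly6C lo, against 8.73% and 9.31% of all genes tested at that p. After adjustment the same fits called 0.0754% in Ly6C hi and 0.0522% in Ly6C lo of all genes. The median of all genes was itself shifted, by 0.35 in Ly6C hi and 0.91 in Ly6C lo, and by 0.00 and -0.01 without vehicle mice 12, 13 and 14.

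Fcer1g in Ly6C hi was the only one of the 14 gene and subset pairs whose groups did not overlap. All 5 vehicle libraries (46470 to 56047 normalized counts, 50804 ± 3670, SD) lay above all 5 Ac-6-FP libraries (32480 to 45946, 41158 ± 5495, SD). The distance between the nearest libraries, mouse 13 and mouse 19, was small. The log2 difference was -0.31 (SE 0.11, limma adjusted p = 0.534), and a two-sided exact permutation test of 5 against 5 gave p = 0.00794, the smallest it can give. Groups did not overlap in 1.35% of all genes tested in Ly6C hi and in 1.5% in Ly6C lo. The difference kept its sign in all 21 alternatives, from -0.37 to -0.23, and none passed the threshold. In Ly6C lo, where the groups overlapped, the difference of Fcer1g was -0.19 with a 95% interval of -0.62 to 0.24.

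Fcgr2b in Ly6C lo had a mean of 2779 ± 570 normalized counts with vehicle and 1822 ± 575 with Ac-6-FP (SD, n = 5 each). Among Ac-6-FP mice, 4 lay below all vehicle mice, and mouse 20 (2814) lay within their range. The log2 difference was -0.63 (95% interval -1.14 to -0.12, limma adjusted p = 0.528, exact permutation p = 0.0317). In Ly6C hi the corresponding difference was -0.07 (95% interval -0.68 to 0.54).

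The width of the intervals differed among the activating receptors. Fcgr1 had a mean of 1046 ± 297 with Ac-6-FP and 675 ± 345 with vehicle in Ly6C hi (SD, n = 5 each), a log2 difference of 0.92 (95% interval -0.46 to 2.31) that was 0.14 without vehicle mice 12, 13 and 14. In Ly6C lo the difference was 0.27 (-0.82 to 1.36). Fcgr3 differed by -0.12 in Ly6C hi, where the interval from -0.36 to 0.12 was the narrowest of the 4 receptors, and by -0.07 (-0.81 to 0.67) in Ly6C lo. Fcgr4 differed by 1.27 in Ly6C hi (-2.03 to 4.57), a value set by the library of mouse 13 without reads, since without it the difference was -0.10, and by 0.20 in Ly6C lo (-0.93 to 1.33).

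Tyrobp differed by 0.03 in Ly6C hi (95% interval -0.27 to 0.33) and by 0.35 in Ly6C lo (-0.11 to 0.81). Syk had the largest fitted differences, 3.67 in Ly6C hi and 4.00 in Ly6C lo (limma adjusted p = 0.627 and 0.545), with 3 of 5 vehicle mice at 0 in both subsets. These are also the mice with the fewest genes above 0. Without them, which leaves out the vehicle libraries in which Syk was at 0 and so removes the lowest values by choice, the differences were -0.21 and -0.62.

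**Figure D4:**
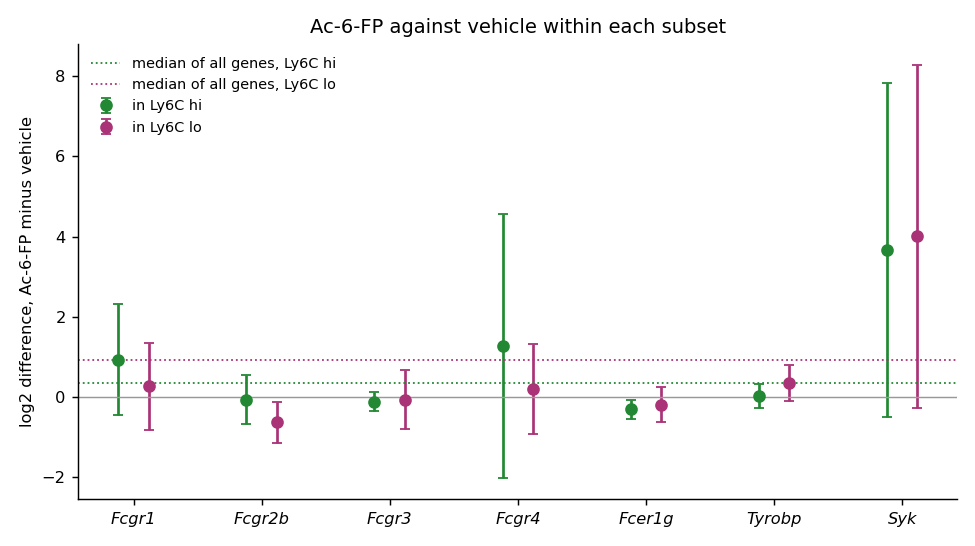
Log2 difference between Ac-6-FP and vehicle for each gene in Ly6C hi and Ly6C lo (5 against 5 mice), with 95% intervals, and the median of all genes tested as dotted lines (0.35 in Ly6C hi, 0.91 in Ly6C lo). Intervals leave out 0 for Fcer1g in Ly6C hi and Fcgr2b in Ly6C lo before any adjustment, and that of Syk spans several log2 units.

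The change with Ac-6-FP was also compared between the subsets, using the within-mouse differences of 5 against 5 mice. None of the 7 genes passed with limma, nor did any with edgeR, and limma called 0.0% of all genes tested. None of the 7 had an unadjusted p under 0.05, against 4.87% of all genes. Fcgr2b was the gene in which the signs differed most between treatments, with more in Ly6C lo in 4 of 5 vehicle mice and more in Ly6C hi in 4 of 5 Ac-6-FP mice. The difference of 0.57 had a 95% interval from -0.28 to 1.41 (adjusted p = 0.830, exact permutation p = 0.159). Fcgr3 and Fcgr4 kept their direction between the subsets in all 5 mice of both treatments.

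Between the 4 groups, the order of mean levels put both Ly6C hi groups first for Fcgr3 and Fcgr1 and both Ly6C lo groups first for Fcgr4 and Fcer1g. For Fcgr3 and Fcgr4 the ranges of neighbours in this order were separate at 1 step, Ly6C hi with Ac-6-FP against Ly6C lo with vehicle for Fcgr3, and Ly6C lo with Ac-6-FP against Ly6C hi with Ac-6-FP for Fcgr4. For Fcer1g the only separate neighbours were the 2 Ly6C hi groups. The neighbours overlapped at every step for Fcgr1, Fcgr2b, Tyrobp and Syk.

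Finally, the pattern of each gene over the 20 libraries was described by Pearson's r of log2 values, for 3229 genes of at least 10 normalized counts in all libraries. These libraries share mice and differ in subset and in the number of genes above 0. So r is a description that in part restates the differences between the subsets. Among the 7 genes, Fcgr3 ran opposite to Fcgr4 (r = -0.71) and to Fcer1g (r = -0.71), whereas Fcgr4 and Fcer1g varied together (r = 0.56), as did Tyrobp and Syk (r = 0.58). Nearest to Fcgr3 were Alox5ap (r = 0.93), which encodes the protein that presents arachidonic acid to 5-lipoxygenase, a row without a symbol (0.93) and Npc2 (0.92), a lysosomal cholesterol carrier. For Fcgr4 they were Apoa1 (0.89), Cd81 (0.86) and Vps4b (0.86), of which Apoa1 is a hepatocyte transcript that was itself higher in Ly6C lo. After the row that overlaps it, Fcer1g was nearest to Prr13 (0.92) and Nupr1 (0.90), and Syk to Man2b1 (0.88), Shisa5 (0.87) and Ppp1r15a (0.85). Tyrobp was nearest to Arpc3 (0.86), a subunit of the actin-nucleating Arp2/3 complex, and to 2 rows without a symbol. The highest values for Fcgr1 (0.73) and Fcgr2b (0.72) were lower than those of the other genes.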

How the data were processed

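RNA was sequenced from 20 libraries of sorted cells. The authors aligned reads of 75 bases with STAR 2.4.0 to mm10, counted them on constitutive gene regions of FAST DB and divided the counts of each library by its DESeq2 size factor. The deposited values are this signal, called normalized counts here, on a linear scale and not divided by gene length. Nearly all values of a library are multiples of 1 step, so whole reads were recovered (tolerance 0.006 normalized counts) for 99.997% of the values that are not 0. For mouse 15, the recovery in Ly6C hi is less certain, since that step is close to 1. A value of 0 allows 3 reads, and such limits cover counting error only.

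Values were taken as log2(normalized count + 1) for the 17248 genes with a mean of at least 10 in 1 of the 4 groups and fitted with limma 3.58.1 (R 4.3.3) over all of them, with a variance trend over mean level. Fold changes are on this scale. The added 1 reduces changes of low genes, whereas libraries at 0 can enlarge them. For Fcgr4 between the subsets the fitted change was 11.8-fold, against a ratio of means of 7.28. For Syk with Ac-6-FP the log2 differences of 3.67 in Ly6C hi and 4.00 in Ly6C lo were 1.63 and 0.87 by edgeR with TMM. Both libraries of a mouse were paired because they come from 1 animal, although their residuals correlated only weakly (median r 0.0338, from 0.00334 to 0.25, against -0.00319 between mice). The exact tests were two-sided, over sign changes of 10 mice or 5 against 5 mice, and were not adjusted. Nothing states that the mice were handled in separate batches.

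Alternatives were edgeR 4.0.16 (quasi-likelihood) on the recovered reads, which called 511 genes between the subsets, other pseudocounts (0.1 and 10) and filters, quantile normalization, array weights, genes above 0 as a covariate, and leaving out mice. Per list, genes called between subsets with 1 sign in all mice were named, at most 3 in each direction. The list of interferon and colony factor receptors is not reported here as a whole. The 7 genes and the lists were chosen with earlier results of these data known. Summaries were made with Python 3.11.15, numpy 2.4.6, pandas 2.3.3 and scipy 1.17.1.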

Additional observations from a re-analysis of the deposited data

Results flagged for a closer look

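Within the 5 vehicle Ly6C hi libraries, Fcgr4 of mouse 12 (339.33 normalized counts) lay far above the others, which were between 0 and 96.9. Its gap to the nearest library exceeded Dixon's critical value (0.71) for 5 samples. This was the 1 library so marked among 28 combinations of gene and group, and chance marks about 1 in 20. No gene had a subset difference of opposite sign in every vehicle and every Ac-6-FP mouse.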

How the results depend on the processing

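Between the subsets, the count of 3 genes past the threshold among the 7 was 2 or 3 under other pseudocounts, filters, scalings and covariates and with each mouse left out in turn, 0 in vehicle mice alone, 1 in Ac-6-FP mice alone and 1 with edgeR without mouse 15. It was 3 without the replicate block, that is without pairing the libraries of a mouse, which changed no call of the 7. Fcgr4 lost its call when mouse 14, 15, 16, 17, 18, 19 or 20 was left out, in vehicle mice alone, with edgeR and with a pseudocount of 0.1. Fcgr3 lost its call when each treatment was taken alone, as did Fcer1g (adjusted p = 0.640 and 0.0502 by limma), which also lost it with quantile normalization (0.642), with edgeR without mouse 15 (0.116) and without mice 12, 13 and 14 (0.112). Calls over all genes ranged from 79 (vehicle mice alone) to 1848 (genes above 0 as a covariate, 1097 of them higher in Ly6C hi, against 312 of 900), with 511 and 530 by edgeR and 392 without mouse 15. In the comparisons of Ac-6-FP none of the 7 passed under any alternative run, while calls over all genes went from 13 to 133 in Ly6C hi and from 9 to 103 in Ly6C lo without mouse 11, and to 0 by edgeR. The 14 genes named from the lists kept their direction under every alternative run and lost a call in 26 of 336 cases. Few reads limit Syk, and Fcgr4 in Ly6C hi.

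Other log2 differences turned sign, none of them past the threshold, and the cause was not tested. Leaving out 1 mouse gave -0.0395 to 0.0951 for Tyrobp and -0.2194 to 0.0074 for Fcgr2b between the subsets, and for Ac-6-FP against vehicle -0.2428 to 0.1109 (Fcgr2b), -0.104 to 1.9987 (Fcgr4) and -0.0309 to 0.1169 (Tyrobp) in Ly6C hi, and -0.2368 to 0.1194 (Fcgr3) and -0.1327 to 0.4893 (Fcgr4) in Ly6C lo. For the difference between these changes it gave -0.239 to 0.1412 (Fcgr3), -0.5934 to 2.034 (Fcgr4), -0.2151 to 0.0284 (Fcer1g) and -1.1697 to 0.8278 (Syk). Between the subsets, Tyrobp became -0.0105 with array weights and -0.1101 in Ac-6-FP mice alone, and Fcgr2b 0.1663 in the latter. Without mice 12, 13 and 14 (added after the values were seen), Tyrobp became -0.0495 and Fcgr2b 0.1 between the subsets, Tyrobp -0.1672 and Syk -0.208 with Ac-6-FP in Ly6C hi, Fcer1g 0.087, Tyrobp -0.0461 and Syk -0.6165 in Ly6C lo, and Syk 0.4085, Fcgr4 -0.3293 and Fcgr1 -0.1045 in the difference between changes. With Ac-6-FP in Ly6C hi, Tyrobp became -0.1361 with genes above 0 as a covariate and Fcgr2b 0.0841 with edgeR without mouse 15 (also added), and in Ly6C lo Fcgr4 became -0.0257 and -0.018 by edgeR with TMM and with the deposited scaling. In the difference between changes, Fcgr3 became 0.0124 and Syk 0.1326 with quantile normalization, Fcgr3 0.0072 and Fcgr4 -0.1933 with array weights, Fcgr3 0.0008 and Syk 0.4764 with edgeR and TMM, Syk 0.44 with the deposited scaling, and Fcgr3 0.1059 and Syk 0.4112 with edgeR without mouse 15.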
